A study of Schizosaccharomyces pombe with 3 samples.

Results

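Tup12 is a corepressor of the fission yeast Schizosaccharomyces pombe, related to budding yeast Tup1, and its occupancy was measured here on the array features named for long intergenic regions. Corepressors of this family do not read DNA themselves. They are brought to promoters by sequence-specific DNA-binding proteins, act with the partner Ssn6, and are known above all for the repression of genes by glucose, iron and other nutrients. In the compact genome of fission yeast most gaps between genes are short, and some of the unusually long ones lie beside genes whose transcription responds to nutrients, stress or mating. A long gap can also hold noncoding transcripts, transfer RNA genes and the terminal repeats of retrotransposons.

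The study hybridised 3 two-colour spotted arrays carrying intergenic and open reading frame (ORF) products. Each array carried Cy5-labelled DNA recovered with an antibody against GFP from Tup12-GFP cells beside Cy3-labelled input DNA of the same kind of cells. All cells were in mid-log growth in rich YES medium, and there was a single group of 3 replicates described as separate experiments, with no array of an untagged strain analysed here. No dye swap was made, and the labels set which channel is which. Each value is the log2 of immunoprecipitate over input signal, with 0 at the array's median. Errors are SDs over n = 3 arrays. "Enriched" and "depleted" mean above and below 0 with a limma adjusted p under 0.05. P-values measure only the spread between these arrays where the experiments were not separate cultures.

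Long features were all those whose array name contains the tag for a long intergenic region, whatever their signal. There were 176 of them among 10197 genomic features, beside 4993 ordinary intergenic features and 5028 ORFs, and each was spotted in 2 copies per array. Of the 176 names, 51 carried a running number and 125 did not. A further tag, Missing, stood on 11 names. These 11 were not tested because of that name. Over all features named Missing on the array, input was accepted in 1.30%, 2.17% and 1.52% of 460 spots, against 1.86%, 1.86% and 1.60% of control spots. Among the 11 long ones it was accepted in 2 of 22 spots on each array (9.09%), both of erm1. Of the other 165, 129 had a value on all 3 arrays, 17 on 2, 13 on 1 and 6 on none. The same gene also had an ordinary intergenic feature for 161 members and an ORF feature for 174.

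The names bore out the label once their side was found. Of 167 members matched to a gene of the reference annotation (ASM294v3), 154 had a gap of at least 3000 bp on the right-hand side of the named gene along the chromosome, and 13 on the left-hand side. Gaps were measured between coding regions of genes present on the array. The median right-hand gap was 3822 bp and the median left-hand gap 878 bp, against 914.5 bp for the gap upstream of genes with an ordinary feature. The longest was 10242 bp, between the transporter gene SPCC794.04c and SPCC794.06. On the array 269 genes had a right-hand gap of that size, of which 154 gave their name to a long feature. The side did not follow the direction of the gene: the gap lay upstream of 116 of the 154 named genes, on the minus strand, and downstream of 38, on the plus strand. The long feature named for fio1, for example, lies beyond the end of fio1, between it and the allantoicase gene dal2, while that of fbp1 lies before its start, facing wwm3. A gap of at least 3000 bp on neither side was found for 11 members, and 9 were not matched. The sources used here name neither the amplified stretch of a gap nor the genome build of the array. This choice of side used gap lengths only.

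**Figure D1:**
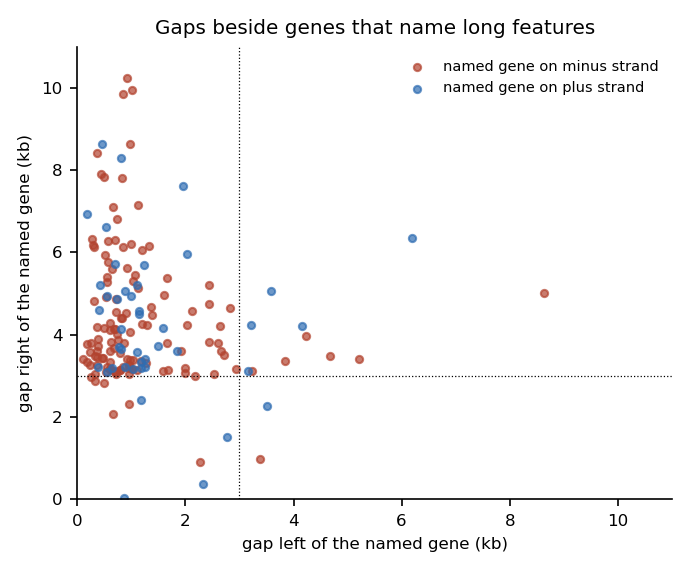
Length in kb of the gap left (x axis) and right (y axis) of each gene that names a long intergenic feature, with 1 point per matched member, coloured by the strand of the gene, and dotted lines at 3 kb. Most points lie above the horizontal line and left of the vertical one, on both strands, so the gap is the one on the right-hand side whichever way the gene runs.

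Promoter sequence is shown for the genes whose values frame the results and which start into their gap: the 3 highest such members with an annotated transcript leader (pgk1, ecm33 and nep2), and fbp1, the textbook gene repressed by glucose. This condition was added after the values were seen, because promoters are meaningful only on the gap side, and lsd90 and SPAC26F1.11, which rank between ecm33 and nep2 among members that start into their gap, had no annotated leader. Each line gives the 300 bases just before the annotated transcript start, 5′ to 3′ in the direction of the gene, from RefSeq's ASM294v3. Capitals mark exact matches, on either strand, to any of 5 motifs. TGACGT is the core bound by the stress factors Atf1 and Pcr1. CCCCTC resembles the stress response element of fission yeast promoters. CCCCGC resembles the box bound by the glucose repressors Mig1, in budding yeast, and Scr1. GATAAG is the sequence recognised by factors of the GATA family, such as the iron regulator Fep1. ACGCGT is the MluI box of genes induced at the start of the cell cycle.
pgk1, chrII:4159462-4159761, minus strand: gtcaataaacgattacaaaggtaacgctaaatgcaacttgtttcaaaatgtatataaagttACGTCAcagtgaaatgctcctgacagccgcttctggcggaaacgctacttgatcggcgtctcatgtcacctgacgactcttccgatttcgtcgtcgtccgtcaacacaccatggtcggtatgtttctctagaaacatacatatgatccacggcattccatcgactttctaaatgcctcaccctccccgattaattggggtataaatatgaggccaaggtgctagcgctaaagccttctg
ecm33, chrI:1571590-1571889, minus strand: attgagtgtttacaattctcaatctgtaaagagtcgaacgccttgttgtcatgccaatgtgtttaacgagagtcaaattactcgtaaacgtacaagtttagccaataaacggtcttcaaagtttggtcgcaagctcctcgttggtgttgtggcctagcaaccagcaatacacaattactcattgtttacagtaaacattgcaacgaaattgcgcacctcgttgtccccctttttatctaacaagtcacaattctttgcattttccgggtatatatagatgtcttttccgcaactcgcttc
nep2, chrII:1454673-1454972, minus strand: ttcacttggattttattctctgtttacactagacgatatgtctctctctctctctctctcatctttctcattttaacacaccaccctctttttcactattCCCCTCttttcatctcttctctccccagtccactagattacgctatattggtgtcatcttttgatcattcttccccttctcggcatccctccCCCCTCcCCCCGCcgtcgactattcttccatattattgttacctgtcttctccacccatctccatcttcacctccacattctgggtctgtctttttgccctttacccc
fbp1, chrII:199370-199669, minus strand: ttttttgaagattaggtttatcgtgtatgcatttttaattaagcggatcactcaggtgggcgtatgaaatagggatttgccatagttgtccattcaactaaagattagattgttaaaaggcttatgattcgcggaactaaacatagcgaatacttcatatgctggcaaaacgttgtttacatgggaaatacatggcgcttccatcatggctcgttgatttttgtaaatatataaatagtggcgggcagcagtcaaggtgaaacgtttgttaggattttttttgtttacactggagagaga

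The pgk1 window held 1 match, the Atf1 core on the reverse strand starting 239 bases before the transcript start. The nep2 window held 3, with CCCCTC at 200 and 108 bases and CCCCGC at 101 bases before the start. The windows of ecm33 and fbp1 held none, which says only that these letters are not in these 300 bases. A window could be taken for 4302 genes, among them the named genes of 93 of the 116 members that lie upstream of their gene. TGACGT was in 12.9% of the 93 windows and in 5.83% of all 4302, and CCCCTC in 8.60% and 2.05%. CCCCGC was in 3.23% of the 93 and 1.14% of all. GATAAG was in 15.1% and 11.9%, and ACGCGT in 1.08% and 2.67%. Of the 8 enriched members with a window 2 held TGACGT, and of the 10 depleted members 1 did. A match is a description of letters, and the windows need not lie in the amplified stretch.

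Most long features lay near the median of the array. Of 129 measured on 3 arrays, 23 were enriched (17.8%, against 22.1% of all 5461 features tested), 19 were depleted (14.7%, against 26.1%) and 87 were neither. Enrichment by at least 1 log2 unit was found for 15 (11.6%, against 15.6%). The binding list was made of features whose spots had a median percentile rank of at least 85, as the labels describe. It held 15 long features (11.6%, against 13.5% of all features tested). The median long feature stood at -0.03, with array medians of -0.03, 0.03 and -0.02 and 10th and 90th percentiles of -0.77 and 1.27. The SD of a feature over arrays had a median of 0.36. Replicates correlated across the 129 members at r = 0.76, 0.81 and 0.66. The number of depleted members was the least settled of these counts: it was 7 without replicate 1, 12 without replicate 3, 1 after further background subtraction and 6 where the zero point was the ORF median, a scaling under which 40 were enriched.

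Against the other classes, long features took a middle place. The median ordinary intergenic feature stood at 0.54 and the median ORF at -0.49. Of 2109 ordinary intergenic features 43.7% were enriched and 7.35% depleted, and of 3223 ORFs 8.19% and 38.8%. Long features were also brighter than ordinary intergenic ones in both channels. Their median input per pixel was 1238, 1883 and 1564 on replicates 1, 2 and 3, against 625, 890 and 802 for ordinary intergenic features. Their median immunoprecipitate was 1707, 1459 and 1791, against 1174, 1041 and 1227. Input spots were accepted for 87.6%, 84.8% and 85.5% of long features' spots and for 53.0%, 61.2% and 55.6% of those of ordinary features, so the ordinary features measured are a more selected group. Where ordinary features were matched to long ones on input signal, in 10 bins, the difference of the class medians was -0.06 ± 0.10, against -0.57 ± 0.04 unmatched.

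**Figure D2:**
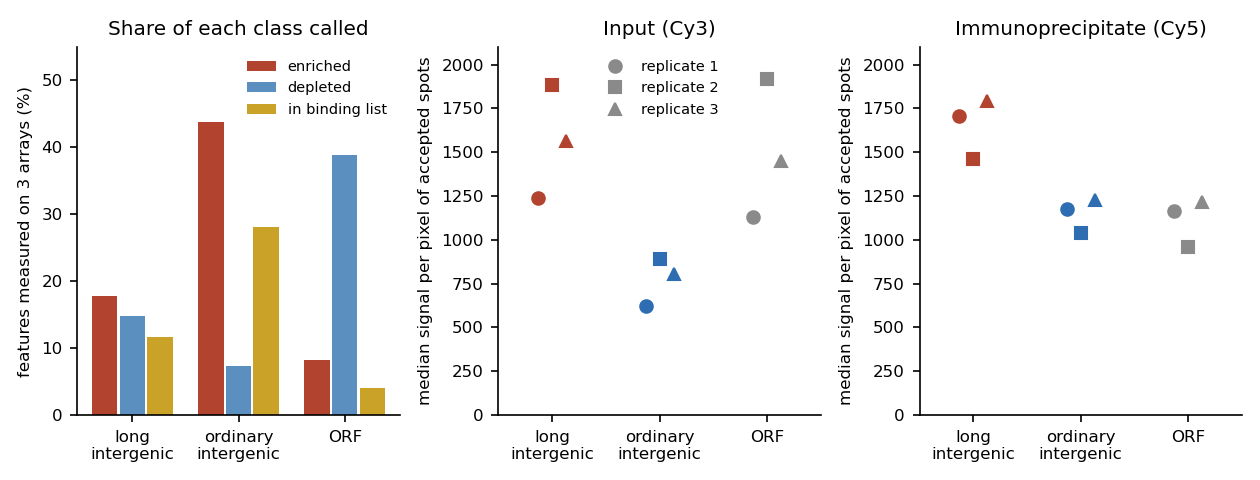
Left, the percentage of long intergenic, ordinary intergenic and ORF features, among those measured on 3 arrays, that were enriched, depleted or in the binding list. Middle and right, the median signal per pixel of accepted spots in the input and immunoprecipitate channels, with 1 symbol per replicate: long features were bright in both channels, with input medians of 1238 to 1883, while ordinary intergenic features were dim in input, at 625 to 890.

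The highest long feature was that of SPAC1F8.08, an uncharacterised gene whose start faces the pyruvate decarboxylase gene pdc101. It gave 2.76, 3.19 and 2.99 on replicates 1, 2 and 3 (2.98 ± 0.21, adjusted p = 2.4e-09). Its long gap lies on the other side, at the gene's end, and spans 4604 bp towards SPAC11D3.01c. The whole locus was high: the ordinary intergenic feature gave 3.46 ± 0.82 and the ORF 3.53 ± 0.39. The long feature did not differ from either by the test (adjusted p = 0.30 and 0.18).

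The glycolytic gene pgk1, which encodes phosphoglycerate kinase, had the highest long feature that lies upstream of its named gene. It gave 2.18, 2.14 and 1.81 (2.04 ± 0.20, adjusted p = 1.2e-06). The ordinary feature of pgk1 gave 3.87, 3.77 and 4.20, above the long one on each array, and the difference of -1.90 ± 0.42 passed the test (adjusted p = 0.0031). Its gap of 3111 bp ends at the S-adenosylmethionine synthetase gene sam1, and the annotation lists a transfer or ribosomal RNA gene and a retrotransposon terminal repeat in it. The long feature of pgk1 was in the binding list.

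Further members of the binding list lay beside genes of varied function. SPAP15E9.02c, a name that did not match the reference, gave 2.36 ± 0.57, and mug96, a gene named for induction in meiosis, gave 1.98 ± 0.39. The cell-surface gene ecm33, divergent to the ubiquitin ligase subunit gene rbx1, gave 1.63, 1.71 and 1.99 (1.78 ± 0.18, adjusted p = 8.5e-06), while its ORF averaged 0.13. The aquaporin-family gene SPAC977.17 gave 1.73 ± 0.38 over a gap of 8638 bp. Then came lsd90 (1.61 ± 0.15), SPAC26F1.11, divergent to the phosphatase gene pyp1 (1.59 ± 0.41), the unmatched SPAC1348.06c (1.56 ± 0.29), the NEDD8 protease gene nep2 (1.52 ± 0.31) and SPAC977.05c (1.35 ± 0.26). Each of these was enriched, with values above 1 on all 3 arrays. The call of SPAC1348.06c was lost under further background subtraction (0.47, limma adjusted p = 0.73) and under normexp correction (1.12, adjusted p = 0.073). With spots rejected by their flags kept in, SPAC977.17, lsd90, SPAC26F1.11, SPAC1348.06c, nep2 and SPAC977.05c were not called. In the authors' series matrix mug96 and lsd90 were not called. With dim input spots left out, mug96, lsd90 and nep2 could not be tested. The E3 ubiquitin ligase gene pqr1 gave 1.14, 0.49 and 1.31 (0.98 ± 0.43, adjusted p = 0.0056) and was lost from the enriched features without replicate 1 or without replicate 3, and after loess normalization (0.26, adjusted p = 0.51). The list's last member, the phosphate transporter gene pho842, gave 1.12, -0.50 and 1.5. Its arrays lie on both sides of 0, and it was not enriched (0.71 ± 1.06, adjusted p = 0.068). Just inside the list's limit of 85 lay pho842 and pqr1, both with a median rank of 87.0. Just outside lay the hexose transporter gene ght6 (84.8), the eisosome gene pil1 (84.1) and agl1 (83.9). These 3 were enriched all the same.

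**Figure D3:**
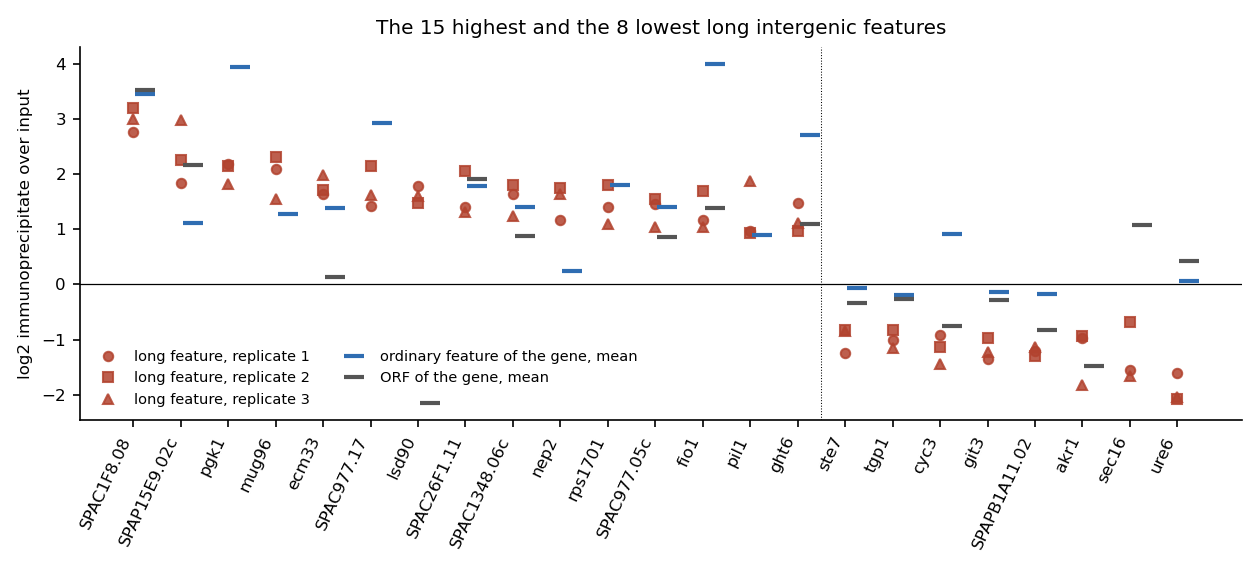
Log2 immunoprecipitate over input of the 15 highest (left of the dotted line) and the 8 lowest long features, with 1 red symbol per replicate, and the 3-array means of the ordinary intergenic feature (blue bar) and the ORF (grey bar) of the same gene where measured. The arrays of a member lie close together compared with the distance between the 2 ends, the ordinary features of pgk1, fio1 and ght6 stand well above their long features, and the ORF of lsd90 stands at -2.15.

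The lowest long features were named for genes of varied function. The urease accessory gene ure6 had the lowest, with -1.60, -2.07 and -2.03 (-1.90 ± 0.26, adjusted p = 3.8e-06). Its ordinary feature averaged 0.05 ± 0.70 and its ORF 0.42 ± 0.78, so the long feature lay below both, by -1.95 (adjusted p = 0.0051) and -2.32 (adjusted p = 0.0019). The vesicle coat gene sec16 followed with -1.56, -0.68 and -1.65 (-1.30 ± 0.54). All its arrays were below 0, and its ORF was at 1.08 ± 0.62. The right-hand gap of sec16 was 2422 bp, so it was not among the 154 placed members. The palmitoyltransferase gene akr1 gave -1.25 ± 0.50 and SPAPB1A11.02, annotated as an esterase or lipase gene, -1.22 ± 0.08. The glucose receptor gene git3 gave -1.36, -0.98 and -1.23 (-1.19 ± 0.19). The phosphodiester transporter gene tgp1 gave -0.99 ± 0.16 and the arrestin family gene ste7 -0.98 ± 0.24. The last 2 were not called without replicate 1. After further background subtraction git3 (-1.77, adjusted p = 0.071), SPAPB1A11.02 (-1.16, adjusted p = 0.054), tgp1 (-0.65, adjusted p = 0.14) and ste7 (-0.54, adjusted p = 0.24) were not called. Ure6, sec16 and akr1 could not be tested there, and 0 of the 19 depleted members kept their call.

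The long feature named for cyc3, a cytochrome c heme lyase gene, is placed in the gap of 7611 bp that ends at the start of ste11, the master transcription factor gene of sexual differentiation. It gave -0.91, -1.13 and -1.44 (-1.16 ± 0.27, adjusted p = 0.0011), below 0 on each array. It was not called after further background subtraction (-1.27, adjusted p = 0.055). The ordinary feature of cyc3 gave 0.65, 1.26 and 0.85, and the difference of -2.08 ± 0.46 passed the test (adjusted p = 0.0024). The ordinary feature of ste11 is named Missing and had no value on any array.

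Within a gene, the long feature was usually the lower of the intergenic pair. Of 90 genes with both measured on 3 arrays, 33 had a lower long feature by the test and 5 a higher one (36.7% and 5.56%, against 5.27% lower and 42.6% higher among all 1538 within-gene pairs fitted, most of which set ordinary intergenic features against ORFs). Without replicate 1 the genes called in either direction numbered 16, against 38 with all arrays. On every array the long feature was below the ordinary one in 52 genes and above it in 13. The median difference was -0.61, -1.01 and -0.56 on replicates 1, 2 and 3 (-0.73 ± 0.25). Both features of a gene went together across genes, with r = 0.54 over the 90 pairs, which share arrays and, for members that lie upstream of their gene, the same gap. An ordinary feature was read as lying before the start of its named gene: features of divergent neighbours correlated at r = 0.61 (307 pairs), features of convergent neighbours at 0.22 (236 pairs) and features of tandem neighbours at 0.27 (418 pairs). That reading came from the same ratios and is not independent of them. On it, 63 pairs lie in the same gap and 16 on opposite sides of a gene. The medians were -0.69 ± 0.18 (21 called lower, 4 higher) and -1.05 ± 0.46 (9 lower, 0 higher, and 0 higher at an unadjusted p under 0.05). Against the ordinary feature of the gene at the other end of the gap, the long feature lay lower too, by -0.59 ± 0.22 over 47 genes, below it on every array in 24 and above it in 10.

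The drop within a gene went with the input channel. Input at the long feature was brighter than at the ordinary one in 64 of 90 genes, by a median of 0.71 log2 units, while the immunoprecipitate signal was brighter in 45 of 90, with a median difference of -0.01. Where the long input was brighter, the median difference of the ratios was -1.01, and where it was dimmer, in 26 genes, it was 0.21. The 2 differences correlated at r = -0.60 over the 90 genes, and since input is the divisor of the ratio, part of that relation is arithmetic. For the 43 genes whose input signals lay within 1 log2 unit of each other, a comparison added after the values were seen, the medians were -0.28, -0.38 and -0.37 (-0.34 ± 0.06). The part of input brightness in the calls of single genes was not tested.

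**Figure D4:**
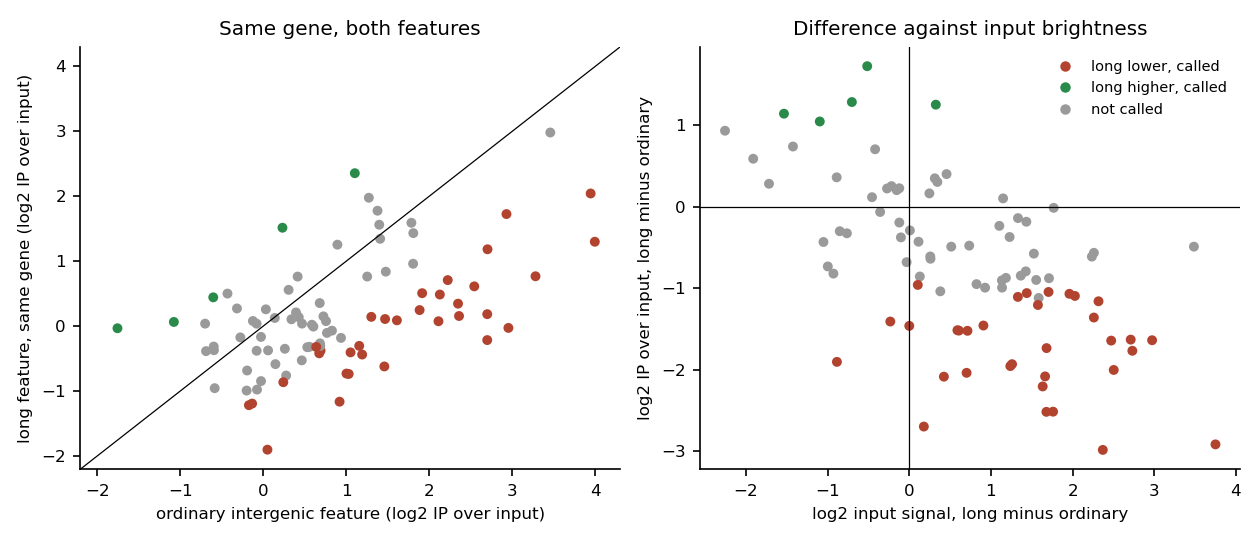
Left, the long feature (y axis) against the ordinary intergenic feature (x axis) of the same gene for 90 genes, as means of 3 arrays, with the line of equal values. Right, the difference of the ratios, long minus ordinary, against the difference of log2 input signal: pairs called lower (red, 33) lie mostly where the long input is brighter, and the 5 called higher (green) mostly where it is dimmer.

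The 6 largest drops, picked for their size among the 90 genes, were at genes with a high ordinary feature. At ptc2, a protein phosphatase gene, the long feature gave 0.06, 0.34 and -0.47, against 2.70, 3.58 and 2.59 for the ordinary feature (difference -2.98 ± 0.31, adjusted p = 0.0011). The alpha-glucan synthase gene mok13 gave -0.16, 0.17 and -0.65, against 2.47, 3.27 and 2.37 (-2.91 ± 0.25, adjusted p = 0.0011). The iron oxidase gene fio1, whose product works with the permease Fip1 in iron uptake, gave 1.17, 1.69 and 1.04, against 4.12, 3.35 and 4.52 (-2.70 ± 0.94, adjusted p = 0.0021). In these 3 genes the long feature is placed beyond the gene's end, and the ordinary feature is read as lying before its start. The other 3 have the long gap before the gene. Their differences were -2.51 ± 1.03 at the centaurin gene cnt5, -2.51 ± 0.63 at the cyclin gene clg1 and -2.2 ± 0.48 at the glucanosyltransferase gene gas1. Log2 input, long minus ordinary, was 2.37 at ptc2, 3.75 at mok13, 0.18 at fio1, 1.68 at cnt5, 1.76 at clg1 and 1.63 at gas1. The part of input in these drops was not tested. The clg1 gap, of 6162 bp, is shared with scr1, which encodes a zinc finger repressor of glucose-repressed genes. The long feature there gave 0.76, 0.47 and 1.08 (adjusted p = 0.024), against 2.89, 3.71 and 3.24 for the ordinary feature of clg1, and it was not called without replicate 1 or without replicate 3.

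The long feature exceeded the ordinary one by the test at tco1, nep2, SPAP15E9.02c, oca2 and SPAC5D6.04, with differences of 1.05 to 1.72. Log2 input, long minus ordinary, was -0.51, -0.70, 0.33, -1.53 and -1.09 at these genes in that order. The part of input in these rises was not tested. At nep2 the long feature gave 1.16, 1.75 and 1.64, against 0.21, 0.26 and 0.23 (1.28 ± 0.29, adjusted p = 0.012). The nep2 gap of 4229 bp faces bem46, whose ordinary feature gave -0.39, -0.77 and 0.53, so neither end's ordinary feature reached the long one. At tco1, an RTA1-like gene, the difference came from a low ordinary feature (-1.75 ± 0.21), with the long feature at -0.03 ± 0.42. The kinase gene cdr1 had a difference of 0.93 ± 0.61 that did not pass (adjusted p = 0.060).

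Set against ORFs, long features differed little on the median. The differences over 100 genes were 0.14, 0.24 and 0.24 (0.21 ± 0.06), with 15 genes higher by the test and 4 lower (8 in all without replicate 1). These are 15% and 4% of the 100, against 42.6% higher and 5.27% lower among all 1538 within-gene pairs. Ordinary intergenic features exceeded their ORFs by 0.95 ± 0.20 over 1348 genes, with 47.1% higher and 3.26% lower. At lsd90 the long feature gave 1.77, 1.47 and 1.60, against -1.74, -2.99 and -1.71 for the ORF, the largest difference among the 100 genes (3.76 ± 0.61, adjusted p = 0.0010). The galactosyltransferase gene gmh6 (2.67), the kinase gene fin1 (1.82), the catalase gene ctt1 (1.80), SPCC794.04c (1.77) and ecm33 (1.65) followed. Lower than their ORFs were sec16 (-2.38), ure6 (-2.32), the desaturase gene ole1 (-1.28) and the MADS-box transcription factor gene mbx2 (-1.08). Git3 and a feature named matmc-x2, not matched to the reference, were next, with -0.90 and -0.73, and did not pass (adjusted p = 0.10 and 0.11). Long and ORF values correlated at r = 0.83 over the 21 genes that end into the gap and at 0.14 over the 64 that start into it. Without the 2 ORFs farthest from the median the first was 0.59 over 19 genes. The difference between these correlations was not tested.

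By the genes at their ends, 60 measured gaps were divergent, with starts at both ends, 43 were tandem and 8 convergent, with ends only, and 18 members were not placed. Of divergent gaps 9 were enriched and 8 depleted, of tandem gaps 6 and 10, and of convergent gaps 4 and 0 (2 lay below 0 at an unadjusted p under 0.05). The shares to set beside these counts are those of all 5461 features tested, 22.1% enriched and 26.1% depleted. Medians of the members' means were -0.04, -0.18 and 0.74 for divergent, tandem and convergent gaps. The convergent median was 0.71 without its highest member. The convergent members were SPAC1F8.08, SPAC977.17, fio1, SPAC750.01 (0.77), pho842, ptc2 (-0.03), mbx2 (-0.63) and SPCC417.12 (-0.65), and the first 3 with pho842 were in the binding list. With 8 gaps on 3 arrays the array medians ranged widely, at 0.85, 0.26 and 1.27, and the types were not tested against each other. Gap length went with the values only weakly, at r = -0.07 over 111 placed members, and the GC content of the gap at r = -0.13. Values went with the feature's own input at r = -0.49 over the 129, part of which is arithmetic since input is the divisor.

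**Figure D5:**
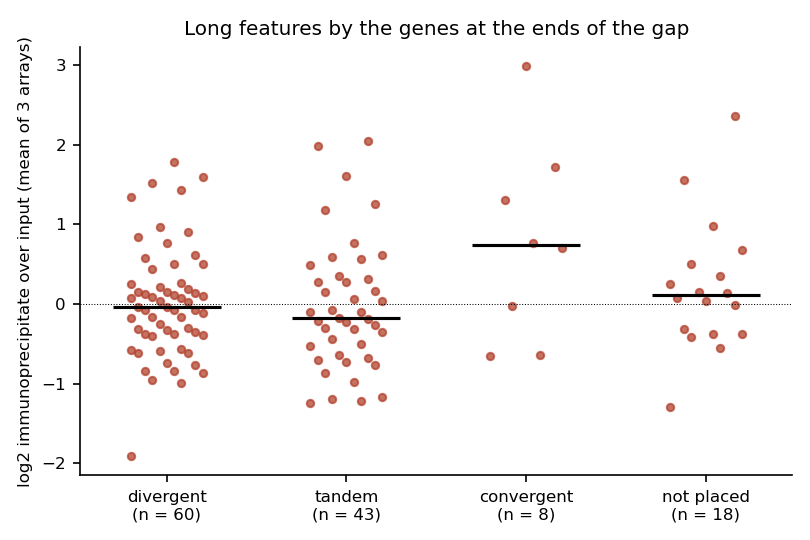
Log2 immunoprecipitate over input of each measured long feature, as the mean of 3 arrays, by the genes at the ends of its gap, with black bars at the medians. Divergent and tandem gaps spread to both sides of 0, and 5 of the 8 convergent gaps lie between 0.71 and 2.98.

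Annotated contents of the gap are given beside the values as a description. A retrotransposon terminal repeat was annotated in 17 of the 111 placed and measured gaps. Of these 17, 5 were enriched and 1 depleted (median 0.08), against 14 and 17 of the 94 without (median -0.07). With a transfer or ribosomal RNA gene in the gap 4 of 16 were enriched and 2 depleted (median -0.05). Without one, 15 of 95 were enriched and 16 depleted (median -0.07). Noncoding RNA genes were annotated in 109 of the 111 gaps, with a median of 4. Gaps with more than 4 were enriched in 5 of 50 cases, against 14 of 61 with 4 or fewer. Within 100 kb of a chromosome end 4 of 15 members were enriched and 3 depleted, with a median of -0.23. Elsewhere 17 of 107 were enriched and 16 depleted, with a median of -0.04. On chromosomes I, II and III the enriched members numbered 9 of 53, 8 of 41 and 4 of 28, and the depleted ones 11, 4 and 4. None of these splits was tested. Over all 5461 features tested, 22.1% were enriched and 26.1% depleted.

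Over all 5461 features tested, the share to set beside each role list, 22.1% were enriched and 26.1% depleted. No list was tested as a set. Among role lists, glucose and carbon source genes gave their name to 3 members, all measured, of which pgk1 and ght6 were enriched. The long feature of ght6 lies in the 5972 bp between the hexose transporter genes ght6 and ght5. It gave 1.47, 0.96 and 1.12 (1.19 ± 0.26, adjusted p = 0.00091), below the ordinary features of ght6 (2.70 ± 0.31) and ght5 (1.57 ± 0.35), and was not called without replicate 1. The third, fbp1, encodes fructose-1,6-bisphosphatase of gluconeogenesis. Its long feature gave 0.09, -0.43 and 0.01, around 0 on each array (adjusted p = 0.76), and its ordinary feature is named Missing and had no value. At the other end of the same 3393 bp gap, the ordinary feature of wwm3 gave 3.67, 3.62 and 3.76. The values of wwm3 and of the fbp1 long feature lie more than 3 log2 units apart on every array.

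The other lists named few members. Of the iron, metal and phosphate list, fio1 was enriched, though not after further background subtraction (0.79, adjusted p = 0.31), and the acid phosphatase gene pho1 had values on 2 arrays (1.07 and 1.25). The iron and zinc transporter gene fet4, which is not on that list and was named after its values were seen, gave -0.30, 0.52 and 0.02 (0.08 ± 0.41, adjusted p = 0.84). Of stress and cation genes, ctt1 gave 0.31, 0.94 and 1.28 (0.84 ± 0.49, adjusted p = 0.016), not called without replicate 3 or under normexp (0.20, adjusted p = 0.63), and the kinase gene wis1 has a Missing feature with no value. List genes at the far end of a gap named for another gene were not counted. Examples are ste11 (the depleted cyc3 feature), scr1 (clg1) and pyp1 (SPAC26F1.11). Others are gpd1 (git11, 0.77 and 0.19 on replicates 1 and 3) and wee1 (SPCC18B5.02c, 1.36 on replicate 3). The long feature of the ribosomal protein gene rps1701, named as 1 of the 15 highest, lies in the 3793 bp before cta3. That stress list gene encodes a cation-transporting ATPase. The rps1701 feature was enriched. It gave 1.40, 1.81 and 1.09 (1.43 ± 0.36, adjusted p = 0.00014), against 1.81 ± 0.51 for the ordinary feature of rps1701 and 3.71 ± 0.56 for that of cta3. Of the cell surface list, which does not hold ecm33, pfl4 (-0.18 ± 0.48), pfl7 (-0.17 ± 0.37) and gas1 (0.16 ± 0.29) were all near 0 and not called. The pfl7 gap, of 3418 bp, faces the transporter gene abc3, whose ordinary feature gave 2.92 ± 0.14. Of mating and meiosis genes, mei2, the RNA-binding inducer of meiosis, had a value on 1 array (1.37). No regulator or cell cycle gene of the list named a long feature.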

How the data were processed

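The authors deposited spot intensities per channel (22176 spots on each of 3 arrays), scanned on a ScanExpress instrument and measured in TIGR Spotfinder per the labels' protocols, after a 2-step amplification of the DNA; spots flagged X are listed at 0. The authors' series matrix, log10 values normalized in GeneSpring per the labels, followed the immunoprecipitate channel more than input or the ratio and served as an alternative. Ratios of spots accepted in both channels (63.5%, 67.9% and 63.4% of genomic spots) were taken as log2, centred on each array's median and averaged over repeat spots. Features with values on 3 arrays (5461), and 1538 within-gene differences, were each fitted with limma 3.58.1 in R 4.3.3 (lmFit, eBayes, mean against 0, Benjamini-Hochberg over the table), tested first on simulated data. Of 9967 features not named Missing, 9528 matched a gene (95.6%). The number of arrays limits the precision. Named were the 15 highest, the 8 lowest, the binding list, the 6 largest differences each way against ordinary feature and ORF, and role-list genes, 47 in all; other genes named are neighbours, or were named after their values were seen. Members and lists were chosen with earlier results of these data known. The promoter sequence of the lowest member is not reported here.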

Additional observations from a re-analysis of the deposited data

Results flagged for a closer look

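Among the 11 long features named Missing, which the comparisons did not use, that of erm1 had both spots accepted in both channels on all 3 arrays, with a mean log2 ratio of -0.047 (-0.12, 0.40 and -0.42). Accepted input spots were thus 2 of 22 for long features named Missing on each array (9.09%), against 1.86%, 1.86% and 1.60% of empty, buffer and E. coli control spots. It is shown because its input was accepted on every array although its name marks a missing product, and why was not tested.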

How the results depend on the processing

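Each setting was centred anew, which moved the zero point: features shared with the main values shifted by a median of -0.77 without the filter on flags, 0.33 without dim input, 0.43 when centred on ORFs, 0.18 with loess and 0.38 in the series matrix. Without the filter on flags, where rejected spots sit at a floor, 10 long features were enriched, 39 depleted and 8 in the binding list, 5 of the 10 and 1 of the 8 shared with the main sets, the class difference was -0.999, and ctt1 stood at -0.30. SPAC977.17, lsd90, SPAC26F1.11, SPAC1348.06c, nep2, rps1701, SPAC977.05c, fio1, pil1, ght6, pqr1, clg1 and gmh6 lost their call there. Further background subtraction gave 1 depleted feature, with 0 shared with the main set, and a class difference of -0.65. It gave 19 genes differing from the ordinary feature and 4 from the ORF, and a median of 0.44 above ORFs. The 4 named members not tested under it were ure6, sec16, akr1 and ctt1. Normexp gave a class difference of -0.71 and within-gene medians of -0.99 and 0.42. Centring on ORFs gave 40 enriched and 6 depleted. Loess gave 11 depleted and a class difference of -0.36. Without dim input 117 were tested and 23 enriched, 14 of them shared with the main set, as were 9 of the 15 listed. There 6 were depleted, the class difference was -0.29 and 18 genes differed from the ordinary feature. Named members not tested there numbered 10, among them pgk1, mug96, lsd90, nep2, rps1701 and pil1. Against ordinary features of the same genes the class difference was -0.88, with input matched in 10 bins -0.056. The within-gene median at like input was -0.34. With a limit of 1 log2 unit 15 were enriched.

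The series matrix differs in several choices at once. Across spots it followed the immunoprecipitate channel (r = 0.93, 0.86 and 0.90 on replicates 1, 2 and 3) more than input (0.36, 0.38 and 0.29) or the ratio (0.50, 0.48 and 0.53). It gave 39 enriched (12 shared with the main set, of 119 tested), 0 depleted in limma (0 also at an unadjusted p under 0.05) and 30 in the binding list (8 shared), a class difference of 1.09, within-gene medians of 0.028 and -0.18, and 2 and 3 genes called. There ste7 stood at 1.74, tgp1 2.03, cyc3 0.30, git3 0.072, SPAPB1A11.02 0.69, ptc2 1.95, mok13 1.97, tco1 2.91, ole1 1.99, mbx2 1.58 and pfl7 3.08, while pqr1 and gmh6 stood at -0.70 and -0.95. Pgk1 (0.55), mug96 (0.19), lsd90 (0.24), rps1701 (0.50) and pil1 (0.30) lost their call there, and 8 named members with a main value had none. Without each replicate in turn, 16 to 28 were enriched, 7 to 17 depleted and 14 to 18 listed. The class difference was -0.61 to -0.54, the within-gene medians -0.80 to -0.58 and 0.19 to 0.24, and 16 to 37 and 8 to 21 genes differed. The cause of these changes was not tested. Arrays could not be paired between conditions because there was a single group of them. Within-gene differences were paired on each array.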
